A study of Mus musculus with 6 samples.

Results

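The genes described here serve antigen presentation by MHC class I molecules in RAW264.7, a mouse macrophage cell line that is widely used. They are B2m, H2-K1, H2-D1, H2-T23, Tap1, Tap2, Tapbp, Psmb8, Psmb9 and Psme2, taken by exact match of the gene name in the array annotation. These 10 genes had 13 probes, against 14747 named genes tested. For 4 h the cells received either AEPS at 50 µg/ml or DMEM medium without it. AEPS is a polysaccharide extracted from the kiwifruit relative Actinidia eriantha. Each group held 3 samples, whose Cy3-labelled RNA was read on 1-colour Agilent arrays. All samples are of 1 cell line grown in serum-containing medium, and no label says that replicates came from separate cultures. The p-values therefore measure only how far these samples vary, and that variation may be technical. In RNA from whole cultures, fewer cells of a type and less RNA per cell cannot be told apart.

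MHC class I molecules show peptides from inside the cell to CD8 T cells. The proteasome cuts proteins into peptides, TAP carries them into the endoplasmic reticulum, and a loading complex fits them into a heavy chain paired with beta-2-microglobulin. Interferons are known to induce genes of all these steps in macrophages, including the immunoproteasome subunits that replace the standard catalytic subunits.

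The measurements came from 2 sources that share arrays. Within each group, replicates 1 and 2 came with identical scanner files, which left 4 distinct arrays, 2 per group, on 2 slides with 1 control and 1 AEPS array each. The authors' deposited value table held 3 columns per group, which were compared with the distinct arrays over all probes. The replicate 1 columns matched the arrays filed under replicates 1 and 2 (Spearman 0.999955 for control and 0.999932 for AEPS). The replicate 2 columns matched the arrays filed under replicate 3 (0.99995 and 0.999948), and the replicate 3 columns matched no scanner file used here. Replicate numbers of the table are therefore used for table values, and slides for the scanner arrays. On the distinct arrays 55.4% to 58.7% of 59305 non-control spots were well above background. Of the 13 probes, 12 were well above background on all 4 arrays and none was saturated. All 8 macrophage markers, among them Adgre1, Csf1r and Spi1, were well above background on every array. Of markers of other cell types, 3 of 7 for T and NK cells, 2 of 4 for B cells, 3 of 4 for dendritic cells and 1 of 4 for fibroblasts and epithelium were above background on all arrays. From those lists, Cd3g, Ncr1, Klrb1c, Ms4a1, Xcr1, Col1a1, Epcam and Krt8 were left untested, since neither group had them well above background on all its arrays. In the scanner fit Cd79b of the B cell list rose by 2.59 ± 0.14 and Zbtb46 of the dendritic cell list by 1.26 ± 0.16 (SE; limma, adjusted p = 0.0126 and 0.0358). The other tested members of those lists, Cd79a, Flt3 and Siglech, read -0.25, -0.34 and -0.26 and did not pass. Col1a2, the tested marker of fibroblasts and epithelium, read -0.72 in both sources without passing. It passed in the table with the replicate block (limma, adjusted p = 0.0168), and read -0.083 on the scanner arrays with spike-in scaling. The 4 tested T and NK cell markers Cd3e, Cd4, Cd8a and Lck read -0.55, -0.55, -1.86 and -0.30 without passing. With the slide as a block Cd4 passed (limma, adjusted p = 0.0478). In the authors' table Lck fell (change -0.34; adjusted p = 0.0415 by limma), and with the replicate block Cd3e and Cd4 passed too (limma, adjusted p = 0.0379 and 0.0115). Cd8a, at -1.69 in the table, was well above background on 2 control arrays and 1 AEPS array. It was tested through the control arrays, so its calls in any fit give no support. With spike-in scaling of the scanner arrays Cd3e, Cd4 and Lck read 0.087, 0.084 and 0.33, and Cd8a -1.23. Of the macrophage markers, Ptprc rose by 0.93 and Fcgr1 fell by 1.49 in the scanner fit (limma, adjusted p = 0.0479 and 0.0344). The part of other cell types in the results was not tested.

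Across the pathway, differences between AEPS and control were small and ran both ways. In the authors' table, B2m rose and H2-D1, Tap2 and Psmb9 fell by limma at an adjusted p of 0.05, so 4 of the 10 genes passed, when 41.4% of all named genes did. By direction, 21.6% of all named genes were called higher and 19.7% lower. The largest of the differences that passed was 0.50 on the log2 scale, a 1.41-fold rise of B2m. In the scanner fit with 2 distinct arrays per group, 0 of the 10 passed (lowest adjusted p = 0.198), when 8.71% of all named genes did (5.25% higher and 3.46% lower), and 0 of the 10 had an unadjusted p under 0.05, when 36.2% of all named genes did. Control and AEPS values did not overlap for 6 of the 10 genes in the table, where the share over all genes was 56.9%, and for 6 of the 10 on the scanner arrays, where it was 67.8%. Same-numbered samples varied together, so fits with the replicate number as a block are given beside many of the calls and list counts that they change. With this block the table called 2 of the 10 higher and 3 lower (56.4% of all named genes passed, 28.5% higher and 27.8% lower), Tap1 being the addition. With the slide as a block the scanner fit again called 0 of the 10, when 33.7% of all named genes did (16.6% up and 17.2% down), and 4 of the 10 had an unadjusted p under 0.05, when 56.2% of all named genes did. Without both replicate 3 columns of the table, 0 of the 10 passed (B2m at an adjusted p of 0.0603). Calls over all named genes fell there too, from 3191 higher and 2908 lower to 1169 higher and 790 lower.

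**Figure D1:**
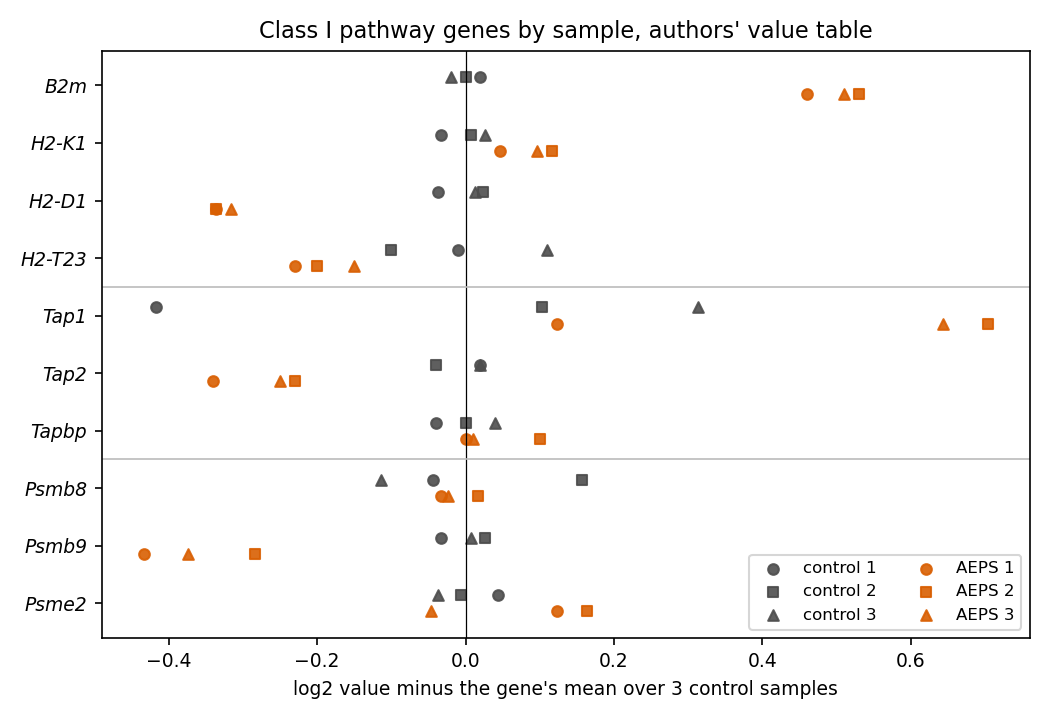
Log2 value of each gene in each of the 3 control (grey) and 3 AEPS (orange) samples of the authors' table, minus the mean of the gene's controls; marker shape gives the replicate number and grey lines part class I chains, transport and loading, and immunoproteasome genes. The AEPS samples of B2m lie 0.46 to 0.53 above the control mean and those of H2-D1, Tap2 and Psmb9 below every control, while the groups overlap for Tap1, Tapbp, Psmb8 and Psme2.

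The direction of the falls depended on how arrays were scaled. Scaling to the array's spike-in control probes moved the median change of all named genes from -0.10 to 0.53, and that of the 10 genes from -0.04 to 0.59. With it all 10 lay above 0, and H2-D1, Tap2 and Psmb9 read 0.25, 0.36 and 0.26. In that setting B2m (0.996, adjusted p = 0.0336) and Tap1 (1.02, adjusted p = 0.0317) passed by limma. Of the 14747 named genes, 4013 were called higher and 144 lower there. Under the scalings by 75th percentile, by quantiles and in the table, 5 of the 10 lay above 0, and with normexp background correction 4 did. The falls given here are therefore falls relative to most other transcripts.

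**Figure D2:**
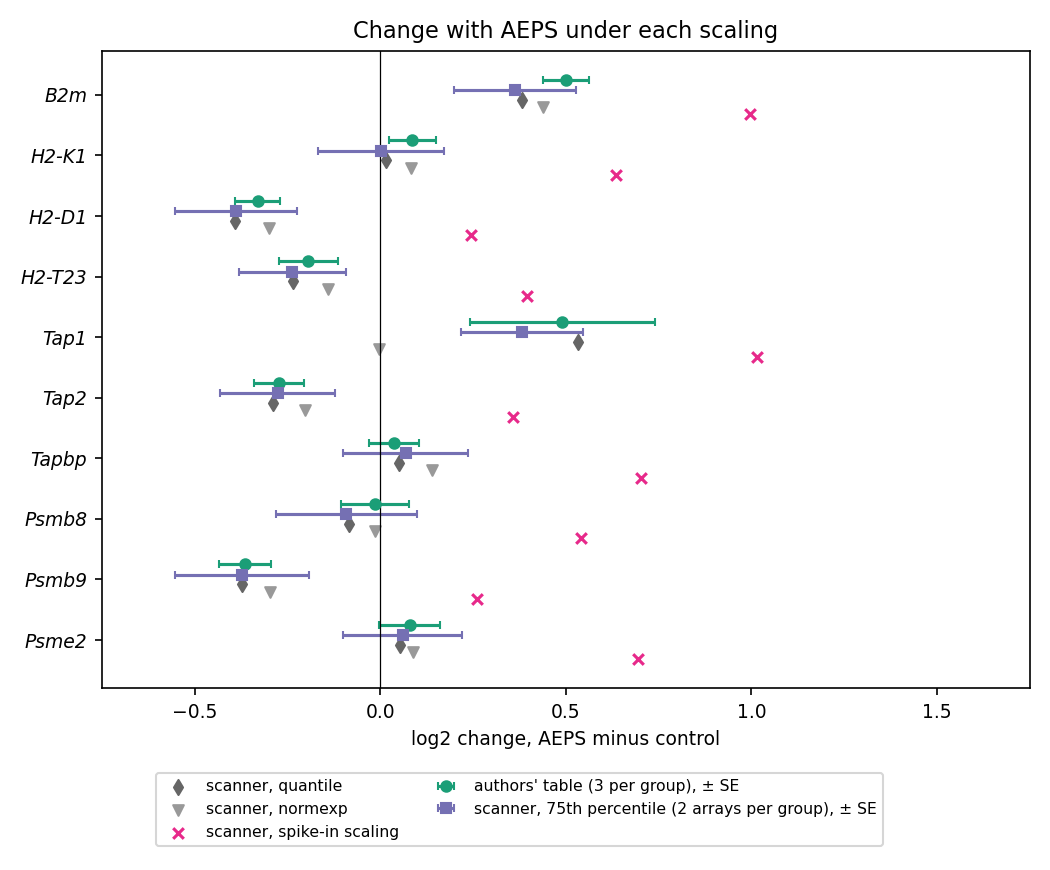
Log2 change (AEPS minus control) of each gene in the authors' table (green, 3 samples per group) and on the scanner arrays scaled to the 75th percentile (purple, 2 arrays per group), with limma's SE as bars, and under 3 other scanner settings without bars. Spike-in scaling puts all 10 genes above 0, while under the other settings H2-D1, H2-T23, Tap2 and Psmb9 stay below 0.

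Among the class I chains, the light chain and 1 classical heavy chain moved in opposite directions in the table. B2m encodes beta-2-microglobulin, the light chain shared by all class I molecules. It read 14.95, 14.93 and 14.91 in the controls and 15.39, 15.46 and 15.44 with AEPS, in log2 units of the authors' table. Every AEPS sample was above every control. The rise was 0.50 ± 0.06 (SE, n = 3 per group; limma, adjusted p = 0.00316). On the scanner arrays, in log2 units relative to the 75th percentile, B2m read 6.59 and 6.74 in the controls and 6.91 and 7.15 with AEPS. Its change there was 0.36 ± 0.16 (n = 2 arrays per group; adjusted p = 0.216, and 0.0590 with the slide as a block), with AEPS above control on both slides.

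H2-D1 encodes 1 of the classical heavy chains, which bind the peptide. It read 14.64, 14.70 and 14.69 in the controls and 14.34, 14.34 and 14.36 with AEPS in the table. All 3 AEPS samples were lower than every control. The fall was 0.33 ± 0.06 on the log2 scale (change -0.33; adjusted p = 0.0112 by limma, n = 3 per group), to 0.796 of the control level. Without control replicate 2 or without AEPS replicate 2 the adjusted p was 0.0506 and 0.0516. The scanner arrays gave 6.25 and 6.50 in the controls and 5.90 and 6.06 with AEPS, a change of -0.39 ± 0.16 (adjusted p = 0.198).

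H2-K1, the other classical heavy chain measured, was represented by a probe with 10 spots per array. In the table it read 15.03, 15.07 and 15.09 in the controls and 15.11, 15.18 and 15.16 with AEPS. The groups did not overlap, but the change of 0.09 ± 0.06 did not pass (adjusted p = 0.340; 95% interval -0.07 to 0.24). On the scanner arrays it read 6.66 and 6.86 in the controls and 6.64 and 6.88 with AEPS, which overlap (change 0.00 ± 0.17). Repeat spots within an array had an SD of 0.04 to 0.12. The second H2-K1 probe ran the other way: it read 13.84, 13.85 and 13.99 in the controls and 13.63, 13.61 and 13.77 with AEPS. Its change was -0.22 ± 0.08 (adjusted p over probes = 0.0908, and 0.0227 with the replicate block). Averaging both probes gave H2-K1 a change of -0.07 in the table, so the sign for this gene depends on the probe.

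H2-T23 encodes Qa-1, a non-classical chain read by receptors on NK and T cells. It read 14.96, 14.87 and 15.08 in the controls and 14.74, 14.77 and 14.82 with AEPS in the table. The AEPS samples were all lower, but the change of -0.19 ± 0.08 did not pass (adjusted p = 0.123; interval -0.39 to 0.01). The scanner arrays gave 6.59 and 6.69 against 6.32 and 6.48 (change -0.24 ± 0.14, adjusted p = 0.321).

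Class I heavy chain genes are close copies of each other, so each probe sequence was compared with the other probes on the array. Of the 13 probes, 11 share no run of 20 bases with any probe of another gene name on the array. The exceptions are the second H2-K1 probe and the H2-T23 probe, which share a run of 29 bases. They are printed 5′ to 3′ in lower case with the shared run in capitals, at mm9 chr17:34133984-34134043 for H2-K1 and chr17:36167338-36167574 for H2-T23, both on the minus strand.
H2-K1, second probe: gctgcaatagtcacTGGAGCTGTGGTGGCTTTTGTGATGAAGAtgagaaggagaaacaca
H2-T23 probe: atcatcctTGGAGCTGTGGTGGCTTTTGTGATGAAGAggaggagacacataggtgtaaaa
Both of these probes read lower with AEPS, whereas the H2-K1 probe with 10 spots, at mm9 chr17:34133055-34133114, did not. The aligned ends of the H2-T23 probe lie 237 bases apart in the annotation, more than its 60 bases. Probes were compared with probes and not with transcripts. Whether transcripts of another heavy chain add to a reading was therefore not tested, also for the probes that share no run. RAW264.7 descends from a BALB/c mouse, whose class I alleles differ from those of the C57BL/6J reference genome, and the match of the probes to the line's own alleles was not tested either.

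The change of H2-K1 exceeded that of H2-D1 by 0.42 on the log2 scale within samples. A factor shared by all probes of an array cancels in such a difference, but scaling that varies with intensity does not. The within-sample difference had an SD of 0.02 in the controls and 0.04 with AEPS, and the groups did not overlap (exact two-sided permutation p = 0.1, the smallest that 3 against 3 allows; 0.2 adjusted over 8 pairs of genes). The scanner arrays gave 0.39. Both values rest on the H2-K1 probe with 10 spots. With the mean over both H2-K1 probes the difference was 0.26.

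Sequence just before the transcription start is shown for these chains because NF-kB and IRF proteins, which are known to drive class I genes, bind near it. All promoter sequence is from RefSeq, build GRCm38.p6, and 9 of the 10 genes had an entry, Tap2 being the exception. Both strands of the 250 bases before each start were searched for the IRF core AANNGAAA, the GAS element TTCNNNGAA and the kappaB consensus. Over all 32851 windows of that length, 21.3% held the first, 7.02% the second and 3.9% the third. The B2m window, chr2:122147437-122147686 on the plus strand, held 1 IRF core from -137 to -130 and 1 kappaB match from -126 to -117, in capitals.
B2m: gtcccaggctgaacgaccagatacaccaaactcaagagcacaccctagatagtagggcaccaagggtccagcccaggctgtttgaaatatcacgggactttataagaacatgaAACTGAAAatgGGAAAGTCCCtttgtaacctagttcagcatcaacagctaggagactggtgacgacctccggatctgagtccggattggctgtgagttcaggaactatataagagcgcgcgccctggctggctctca
The H2-D1 window, chr17:35262844-35263093 on the plus strand, held 2 overlapping kappaB matches from -171 to -161 and 1 IRF core from -150 to -143, read on the other strand.
H2-D1: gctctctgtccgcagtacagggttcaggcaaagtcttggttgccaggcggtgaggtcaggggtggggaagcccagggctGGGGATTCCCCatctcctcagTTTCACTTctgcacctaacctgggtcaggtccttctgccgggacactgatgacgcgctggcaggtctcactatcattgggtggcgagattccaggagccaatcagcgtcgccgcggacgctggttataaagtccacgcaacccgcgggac
The H2-K1 window held the same 3 matches, and 166 of 190 aligned bases (87.4%) were identical to H2-D1. Over the 29 bases that hold the matches, the genes differ at 1 base, A18T, counted from the 5′ end with H2-K1 first. The stretch lies at chr17:34000430-34000458 on the minus strand for H2-K1 and at chr17:35262923-35262951 on the plus strand for H2-D1.
H2-K1 stretch: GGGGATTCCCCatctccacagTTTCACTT
H2-D1 stretch: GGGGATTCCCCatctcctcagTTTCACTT
B2m and H2-D1 hold both kinds of match. In the table they read in opposite directions with AEPS, and with spike-in scaling of the scanner arrays both lay above 0 (0.996 and 0.25). Whether the matches bear on the direction was not tested. H2-T23 held 2 IRF cores, Psmb8 held 1 GAS match, and Tap1, Psmb9, Tapbp and Psme2 held no match to these letters in the window. A match is a description of the letters only.

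Of the further class I and class I-like chains, 15 of 22 listed genes were tested. In the authors' table, 2 rose and 3 fell (2 and 4 in the blocked fit), with a median change of -0.18, when the median of all named genes was -0.02. In the scanner fit 1 rose and 0 fell, or 2 and 2 with the slide as a block. The shares of all named genes that passed apply to this and the later lists. They were 41.4% in the table, or 56.4% blocked, and 8.71% in the scanner fit, or 33.7% blocked. H2-T24, a non-classical chain gene, rose by 1.14 ± 0.07 in the table and by 1.09 ± 0.13 on the scanner arrays (limma, adjusted p = 0.0331 in the latter). H2-M2 was well above background on 0 of the 2 control arrays and was tested through the AEPS arrays, so its change is a bound only: on the scanner arrays it read at least 1.91-fold higher with AEPS. It is counted among those that rose in the table, but a call on a probe tested through the group where it is high gives no support. Its change turned to -0.11 on the scanner arrays with normexp correction. Hfe, which controls iron uptake through the transferrin receptor, fell by 0.63, and H2-M3, which presents formylated peptides, fell by 0.42 in the table. H2-K2, the brightest that did not pass, changed by -0.18 ± 0.09. With spike-in scaling of the scanner arrays Hfe, H2-M3 and H2-K2 were above 0.

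Of the peptide transport and loading genes, Tap2 fell in the table and Tap1 and Tapbp did not pass. Tap1 and Tap2 encode the chains that form this transporter, and Tapbp encodes tapasin, which bridges it to the class I chain. Tap1 was dim: its 10 spots read 41.6 to 72.2 and 41.4 to 53.0 in signal units on the control arrays and 84.4 to 121 and 92.9 to 110 on the AEPS arrays, before any scaling between arrays. In the table Tap1 read 5.39, 5.91 and 6.12 in the controls and 5.93, 6.51 and 6.45 with AEPS. The groups overlapped, yet each AEPS sample was above the control of the same number, by 0.54, 0.60 and 0.33. The change was 0.49 ± 0.25 (adjusted p = 0.192; interval -0.13 to 1.11), and with the replicate block it passed (adjusted p = 0.0158). Without control replicate 1 the change of Tap1 was 0.28. Relative to the 75th percentile Tap1 read -2.85 and -2.64 in the controls and -2.47 and -2.26 with AEPS (change 0.38 ± 0.16, adjusted p = 0.202 and 0.0518 with the slide as a block). With normexp background correction the change was -0.0035, so the direction for this dim probe depends on the background correction.

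Tap2 read 11.46, 11.40 and 11.46 in the controls and 11.10, 11.21 and 11.19 with AEPS. All AEPS samples were lower. The change was -0.27 ± 0.07 (limma, adjusted p = 0.0283), to 0.827 of the control level. Leaving out any 1 of the 6 samples took the adjusted p of Tap2 to between 0.0713 and 0.0817, and testing without a filter on dim probes took it to 0.0622. On the scanner arrays it read 2.92 and 3.00 against 2.56 and 2.80 (change -0.28 ± 0.15, adjusted p = 0.291). Within samples the change of Tap1 exceeded that of Tap2 by 0.76 (SD 0.39 in controls and 0.26 with AEPS; exact permutation p = 0.1, adjusted 0.2), with no overlap of groups. The scanner arrays gave 0.66 for this difference of changes. With normexp correction both Tap1 and Tap2 lay below 0 (-0.0035 and -0.20), and with spike-in scaling both lay above 0 (1.02 and 0.36).

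Tapbp read 13.07, 13.11 and 13.15 in the controls and 13.11, 13.21 and 13.12 with AEPS, which overlap. Its change of 0.04 ± 0.07 did not pass (adjusted p = 0.718; interval -0.13 to 0.20). Its relative Tapbpl, which edits peptides on class I chains outside the loading complex, changed by 0.02 ± 0.17, and the 2 changes differed by 0.02 (exact permutation p = 0.9, adjusted 1).

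The 12 further loading and trimming genes were all tested. In the authors' table, 6 rose and 2 fell (9 and 2 in the blocked fit), and the median change was 0.43. Of all named genes, 21.6% were called higher there and 19.7% lower (28.5% and 27.8% blocked). In the scanner fit 1 of the 12 rose and 0 fell, or 6 and 2 with the slide as a block. Pdia3 encodes ERp57, the disulphide isomerase of the loading complex. It rose by 1.11 ± 0.08 in the table and by 1.20 ± 0.15 on the scanner arrays (adjusted p = 0.0362 by limma). Calr encodes calreticulin, the chaperone that holds the empty class I chain in that complex. It fell by 0.39 ± 0.10 in the table (change -0.39, adjusted p = 0.0302) and read -0.48 ± 0.22 on the scanner arrays (adjusted p = 0.226, and 0.0423 with the slide as a block). Spike-in scaling turned the latter to 0.15. Among peptidases, Lnpep, Tpp2 and Blmh rose by 0.72, 0.64 and 0.45 in the table. Pdia3 is the gene of the loading step that passed in both sources.

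Of the immunoproteasome and activator genes, Psmb9 fell in the table and Psmb8 and Psme2 did not pass. Psmb8 and Psmb9 encode LMP7 and LMP2, which replace the standard catalytic subunits encoded by Psmb5 and Psmb6. Psmb9 read 12.08, 12.14 and 12.12 in the controls and 11.68, 11.83 and 11.74 with AEPS in the table. All AEPS samples were lower. The change was -0.36 ± 0.07 (limma, adjusted p = 0.0134), to 0.777 of the control level, and the adjusted p was 0.0568 without control replicate 2 and 0.0527 without AEPS replicate 3. The scanner arrays gave 3.56 and 3.77 against 3.15 and 3.44, a change of -0.37 ± 0.18 (adjusted p = 0.240).

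Psmb8 read 12.83, 13.03 and 12.76 in the controls and 12.84, 12.89 and 12.85 with AEPS. The groups overlapped, and the change of -0.01 ± 0.09 did not pass (adjusted p = 0.929; interval -0.24 to 0.21). On the scanner arrays its change was -0.09 ± 0.19. Psme2 encodes PA28 beta, a subunit of the ring that opens the proteasome. It read 15.67, 15.62 and 15.59 in the controls and 15.75, 15.79 and 15.58 with AEPS (change 0.08 ± 0.08, adjusted p = 0.503; interval -0.13 to 0.29). A second Psme2 probe, 13.36, 13.37 and 13.36 in the controls and 13.55, 13.63 and 13.64 with AEPS, did not overlap and changed by 0.24 ± 0.06 (adjusted p over probes = 0.0319). The third Psme2 probe was not well above background on any array. The probes of Psme2 thus differed in whether they passed, with the same sign.

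Psmb9 and Tap1 stand head to head on chromosome 17, and the sequence between their starts is shown because it lies before both genes. In RefSeq, Psmb9 starts at 34187330 on the minus strand and Tap1 at 34187556 on the plus strand of GRCm38.p6, with 225 bases between them. Psmb8 and Tap2 follow next in the annotation, and 8 of the 10 genes lie on chromosome 17. B2m is on chromosome 2 and Psme2 on chromosome 14. The stretch chr17:34187331-34187555 holds none of the 3 motifs searched, so it is all in lower case.
Psmb9 to Tap1: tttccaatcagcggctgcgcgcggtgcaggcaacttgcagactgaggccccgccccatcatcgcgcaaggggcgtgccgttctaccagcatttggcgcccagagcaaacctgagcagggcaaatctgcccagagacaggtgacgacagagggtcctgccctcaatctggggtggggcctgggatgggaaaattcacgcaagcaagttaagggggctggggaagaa
The probes that read these genes lie at mm9 chr17:34330854-34330913 on the plus strand and chr17:34319174-34319233 on the minus strand, and neither shares a run of 20 bases with another gene's probe.
Tap1 probe: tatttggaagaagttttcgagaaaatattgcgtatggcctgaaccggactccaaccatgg
Psmb9 probe: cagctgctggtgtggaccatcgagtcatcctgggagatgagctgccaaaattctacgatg
Within samples the change of Tap1 exceeded that of Psmb9 by 0.85 (SD 0.35 in controls and 0.26 with AEPS), with no overlap of groups. The exact permutation p was 0.1, the smallest possible, and 0.2 after adjustment. The scanner arrays gave 0.75. With normexp correction both Tap1 and Psmb9 lay below 0 (-0.0035 and -0.30), and with spike-in scaling both lay above 0 (1.02 and 0.26). The size of this difference thus depends on the background correction of the dim Tap1 probe.

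**Figure D3:**
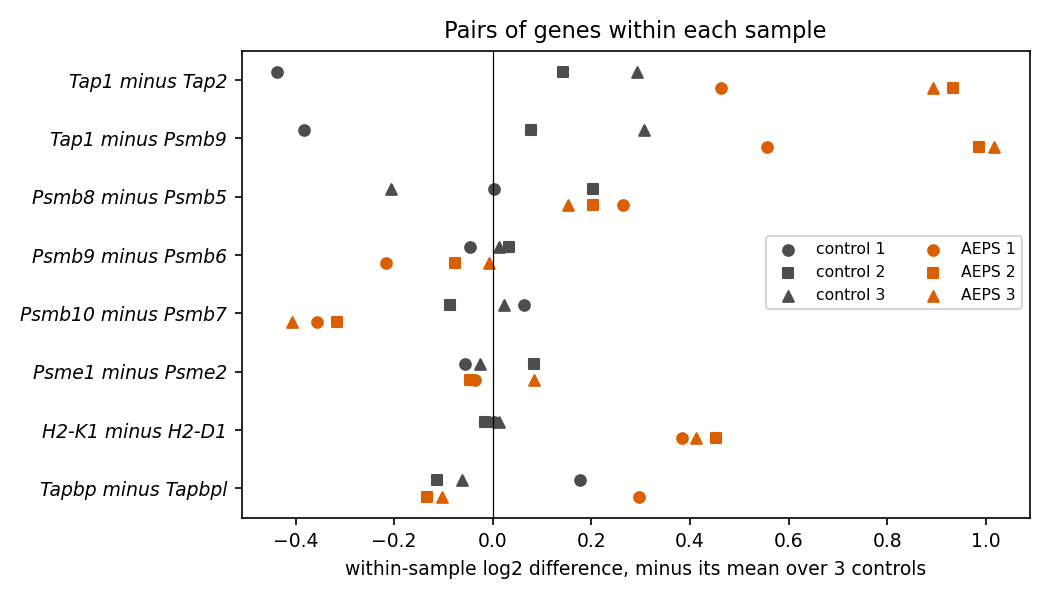
Within-sample log2 difference of 8 pairs of genes in the authors' table, minus its mean over the 3 controls; grey marks controls, orange AEPS, and shape the replicate number. The AEPS samples lie apart from the controls for Tap1 minus Tap2, Tap1 minus Psmb9, Psmb10 minus Psmb7 and H2-K1 minus H2-D1, and overlap them for the other pairs.

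The immunoproteasome subunits were also set against the standard subunits they replace. Psmb5, Psmb6 and Psmb7 changed by -0.22 ± 0.08, -0.26 ± 0.07 and 0.19 ± 0.07 in the table, of which Psmb6 passed (adjusted p = 0.0417). Psmb5 passed with the replicate block (adjusted p = 0.0400 by limma), which made 0 higher and 2 lower. On the scanner arrays Psmb5 read -0.42 and passed with the slide as a block only (limma, adjusted p = 0.0470). The change of Psmb8 exceeded that of Psmb5 by 0.21 (exact permutation p = 0.3, adjusted 0.4), and that of Psmb9 fell short of Psmb6 by a difference of -0.10 (exact permutation p = 0.2, adjusted 0.32). These permutations do not use the pairing by number. Between same-numbered samples Psmb9 minus Psmb6 was lower with AEPS in 3 of 3, by differences of -0.17, -0.11 and -0.02. Psmb10, which encodes the third immunoproteasome catalytic subunit MECL-1, changed by -0.17 ± 0.07 and differed from Psmb7 by -0.36, with no overlap of groups (exact permutation p = 0.1, adjusted 0.2). All 3 standard and all 3 immunoproteasome catalytic subunits were above 0 with spike-in scaling of the scanner arrays. In the table Psmb8, Psmb9 and Psmb10 all lay below 0, and of their differences from the standard subunits 1 was above 0 and 2 were below, with an adjusted p of 0.2 or more.

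Of the 6 further immunoproteasome, activator and assembly genes, 1 rose and 0 fell in the table, and 0 passed in the scanner fit, where the lowest adjusted p was that of Psme4. Psme4, which encodes the activator PA200, read 0.72 ± 0.12 in the table (adjusted p = 0.00910) and 0.57 ± 0.13 on the scanner arrays (adjusted p = 0.0811, and 0.0376 with the slide as a block). Psme1, the partner of Psme2 in the PA28 ring, changed by 0.08 ± 0.07, as Psme2 did, and the difference between them was 0 (exact permutation p = 1). Psme3 changed by 0.16, the proteasome inhibitor gene Psmf1 by -0.09 and Pomp, whose product assembles the proteasome, by 0.12, and none of them passed. Of the 11 other 20S core subunits, 6 rose and 0 fell in the table (7 and 1 in the blocked fit), with a median of 0.35, and 1 rose on the scanner arrays, or 3 with the slide as a block. Psma6 rose by 1.18 ± 0.10 in the table and 1.17 ± 0.17 on the scanner arrays (limma, adjusted p = 0.0440 in the latter), and Psma1, Psmb2 and Psma3 by 0.57, 0.45 and 0.44 in the table. Psmb4, the brightest that did not pass, changed by -0.16 ± 0.06.

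The inducers of the pathway were measured on the same arrays. Ifnb1 encodes interferon beta and rose by 5.20 ± 0.13 in the table and by 4.96 ± 0.16 on the scanner arrays (limma, adjusted p = 0.00814 in the latter). Ifng, the gene of interferon gamma, was too dim to be tested. Of the receptors, Ifnar1 read 0.46 ± 0.07 (adjusted p = 0.00665) and Ifngr1 -0.34 ± 0.08 (adjusted p = 0.0255) in the table, and Ifnar2 and Ifngr2 changed by 0.16 and 0.19 without passing. With the replicate block Ifngr2 passed in the table (adjusted p = 0.0446 by limma). The receptor genes did not pass in the scanner fit, where Ifnar1 reached an adjusted p of 0.0424 with the slide as a block, and Ifngr1 read 0.36 there with spike-in scaling.

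Of 17 interferon-inducible comparison genes, 15 were tested. In the authors' table, 14 rose and 1 fell, with a median of 2.10, and on the scanner arrays 13 rose and 0 fell (13 and 1 with the slide as a block), with a median of 2.02 (2.65 with spike-in scaling and 1.56 with normexp). Over the 10 class I pathway genes the medians were 0.01 and -0.04. Ifit2, counted among those that rose, was well above background on 0 of the 2 control arrays. It was tested through the AEPS arrays, so its call gives no support and its change is a bound only. On the scanner arrays it read at least 3.03-fold higher with AEPS. Ifit1, Isg15 and Rsad2, antiviral genes, rose by 4.46, 4.24 and 3.61 in the table, and Gbp3 and Mx2 by 3.44 and 3.38. Iigp1, an interferon-inducible GTPase, was the gene that fell (change -0.60, adjusted p = 0.00542). The 2 lists thus differed in size of change, and no test was made between them.

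Of 14 transcription factors known for class I genes, 13 were tested, and 3 rose and 4 fell in the table (5 and 4 in the blocked fit), against 1 and 0 on the scanner arrays, or 2 and 1 with the slide as a block. Nfkb1, which encodes the p50 precursor of NF-kB, rose by 1.50 ± 0.07 in the table and 1.52 ± 0.14 on the scanner arrays (limma, adjusted p = 0.0245 in the latter). Irf9, part of the complex that signals from type I interferon, rose by 0.75, and Rfxank and Irf2 fell by 0.51 and 0.36 in the table. Rela, the brightest that did not pass on the scanner arrays, fell by 0.29 in the table (adjusted p = 0.0206). Nlrc5, the class I transactivator, changed by 0.33 ± 0.11 (adjusted p = 0.0612, and 0.0140 with the replicate block), and Irf1 rose by 0.35 ± 0.09 (adjusted p = 0.0282) in the table. Both are named after their values were seen. Spike-in scaling put Rfxank, Irf2 and Rela above 0.

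Class II presentation was listed for comparison, and 7 of its 9 genes were tested. In the authors' table, 1 rose and 2 fell (1 and 3 in the blocked fit), with a median of -0.39, and 0 passed in the scanner fit, or 0 higher and 3 lower with the slide as a block. Cd74, the invariant chain of class II, rose by 0.44 ± 0.07, and H2-DMb1 and H2-DMa, which load class II peptides, fell by 0.73 and 0.68.

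**Figure D4:**
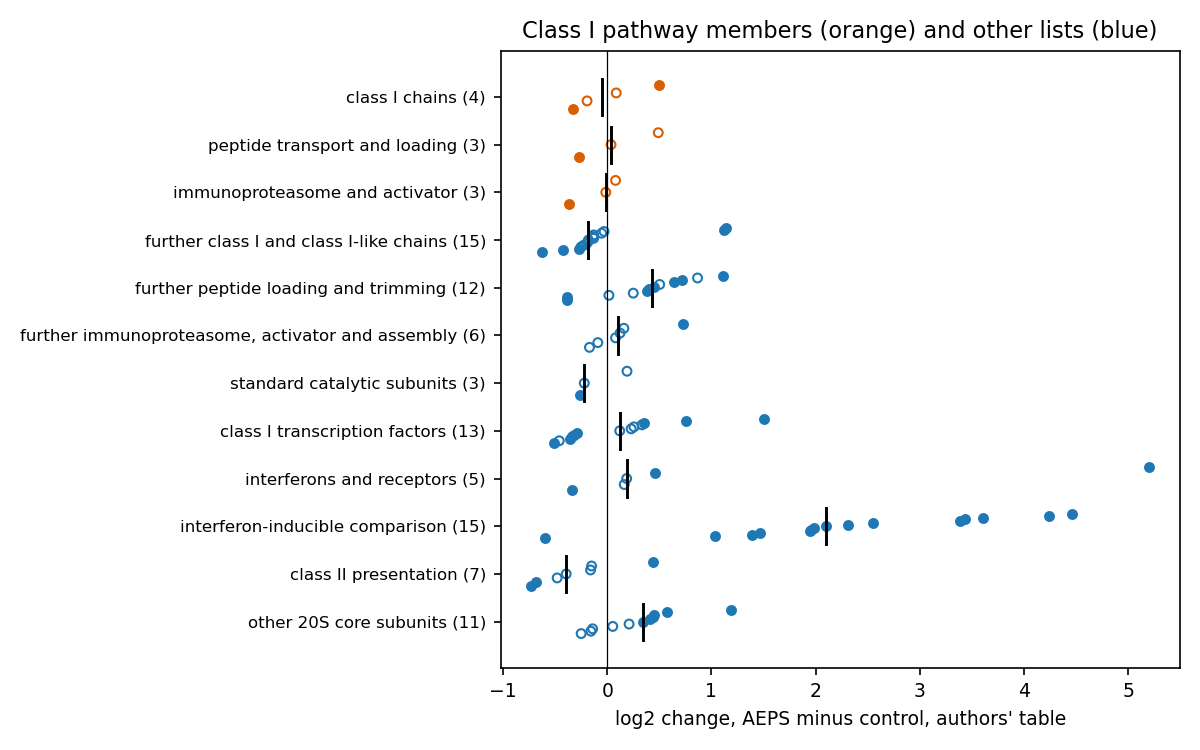
Log2 change (AEPS minus control) in the authors' table of each tested gene of the class I pathway by role (orange) and of the other lists (blue), with the number of genes in parentheses; filled points passed an adjusted p of 0.05 by limma and black bars are medians. Class I pathway genes lie between -0.36 and 0.50, while the interferon-inducible comparison genes have a median of 2.10.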

How the data were processed

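Spot intensity values are, per the file headers, processed signals from Agilent Feature Extraction 10.7.1.1, background-subtracted within each array. The authors' deposited value table is on a log2 scale, judged from its step per doubling of the processed signal on the matched array (0.948 to 1.02 over the brightest 50% of probes). Its columns each had a median of 4.71 and sorted columns differed by at most 0.01; its log offset and normalization are not given in the sources used here. Gene names and mm9 probe positions came from the annotation in the replicate 3 files.

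Control spots were left out and outlier spots set to missing. Processed signals were put on the log2 scale and centred on the 75th percentile of the array (401, 287, 575 and 488 in signal units). A probe counted as above background where at least 50% of its spots were, and was tested if so on every array of 1 group. A gene was represented by its brightest probe, and 25942 features were tested with limma 3.58.1 in R 4.3.3 with Benjamini-Hochberg adjustment, at 0.05. SE is limma's moderated SE and intervals are at 95%. Precision is limited by the number of arrays.

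The genes, lists, pairs and tests were chosen with earlier results of these data known. All 10 genes are named; of each further list, up to 4 with the largest change that passed in either source and the brightest that did not, and lists of 6 or fewer whole. Deviations of same-numbered samples from group means correlated at 0.578, 0.382 and 0.413 in the table and at 0.620 on the scanner slides, above the bound of 0.1, so the numbers were taken to pair samples. Table samples of different numbers correlated at -0.495 to 0.238. The highest of these, control 3 with AEPS 2, also lay above the bound, so the bound alone does not single out same-numbered pairs. On simulated data of 14726 genes the scanner fit recovered 0%, 6%, 48% and 76% of changes of 0.5, 1, 2 and 3 on the log2 scale, with 1 false call. With 14747 genes the table fit recovered 40%, 72%, 90% and 100%, with 6 false calls. Fewer genes were changed in the simulation than passed in either fit here. Its noise was drawn for each sample on its own, without the pairing by number. The shares recovered are therefore not the power of these fits. Alternatives covered background correction, scaling, filters, probe choice, the block and each replicate left out. Some genes of the lists are not reported here by name.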

Additional observations from a re-analysis of the deposited data

How the results depend on the processing

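The 10 class I pathway genes kept 0 calls under most scanner settings, but 2 rose with spike-in scaling, when 4013 of 14747 named genes did. In the authors' table, 2 rose with the replicate block, and without single replicates 1 rose and 0 to 2 fell; 0 rose and 0 fell without both replicate 3 columns, an alternative chosen after seeing the data. Without a filter on dim probes 1 rose and 2 fell in the table, Tap2 being lost. Other exceptions per gene stand beside the results. Of the 10 genes, the replicate block changed the call on Tap1 only.

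Counts over all named genes, higher and lower, moved more. On the scanner arrays they were 774 and 510, and became 1483 and 1470 with normexp, 1284 and 1021 with quantile normalization, 4013 and 144 with spike-in scaling, 2097 and 1721 with the percentile over probes above background on all arrays, 1265 and 816 over single probes, 2444 and 2531 with the slide as replicate block, and 0 and 0 without a filter on dim probes. Without single arrays they ranged from 7 to 329 and from 0 to 173. The table's 3191 and 2908 ranged from 2092 to 2835 and from 1859 to 2570 without single replicates, lowest without AEPS replicate 2 and without control replicate 2, and became 1169 and 790 without both replicate 3 columns. The cause was not tested.

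Directions turned as follows. With spike-in scaling the changes were 0.25 for H2-D1, 0.40 for H2-T23, 0.36 for Tap2, 0.54 for Psmb8, 0.26 for Psmb9, 0.39 for H2-K2, 0.15 for Calr, 0.38 for Psmb10, 0.61 for Psmf1, 0.21 for Psmb5, 0.26 for Psmb6, 0.34 for Rela, 0.36 for Ifngr1, 0.33 for Psmb4, 0.58 for Tapbpl, 0.086 for Hfe, 0.22 for H2-M3, 0.12 for Rfxank and 0.31 for Irf2. With normexp Tap1 read -0.0035 and H2-M2 -0.11. With the mean over probes H2-K1 read -0.13 on the scanner arrays and -0.068 in the table. Without single arrays the scanner changes ranged from -0.12 to 0.12 for H2-K1, -0.055 to 0.19 for Tapbp, -0.27 to 0.084 for Psmb8, -0.039 to 0.16 for Psme2, -0.083 to 0.17 for Psme1, -0.17 to 0.13 for Psmf1 and -0.22 to 0.12 for Tapbpl. In the table they ranged from -0.07 to 0.065 for Psmb8 and from -0.092 to 0.17 for Tapbpl. Of the pairs, Psmb9 minus Psmb6 was 0.0014 on the scanner arrays, Psme1 minus Psme2 was -0.082 with the mean over probes, and Tapbp minus Tapbpl ranged from -0.12 to 0.11 without single replicates. Low signal over background limits the value of Tap1.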
